A study of Homo sapiens with 12 samples.

Results

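The replication-dependent histone genes are the multicopy genes that supply linker histone H1 and the core histones H2A, H2B, H3 and H4 when DNA is copied. They were chosen by symbol, as genes now called H1-1 to H1-6, H2AC, H2BC, H3C or H4C with a number, or named HIST1H, HIST2H or HIST3H in the older system, without pseudogenes. RefSeq lists 70 protein-coding genes of this kind, and 58 of them had a probe set that carries their symbol alone, of 18417 genes measured in all. H4C14 and H4C15 had identical values and were counted once, which left 57 measurements: 6 of H1, 14 of H2A, 16 of H2B, 9 of H3 and 12 of H4. The other 12 genes were represented only by probe sets shared between several genes. Of the 57, 49 lie on chromosome 6, 7 on chromosome 1 and H4C16 on chromosome 12. H3-4, a testis form of H3, entered through its older name HIST3H3.

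Replication-dependent histone mRNAs are made mostly while a cell copies its DNA, and outside that phase they are quickly degraded. Their ends are formed at a stem-loop bound by SLBP in place of a poly(A) tail, and cyclin E with CDK2 switches on their transcription through the coactivator NPAT. H2A, H2B, H3 and H4 build the nucleosome core and H1 binds the linker DNA between cores. SIN3A holds together a complex that removes acetyl groups from these proteins in chromatin.

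RNA was measured on 12 whole-transcript arrays from the established human airway epithelial line Calu-3, which had received SIN3A siRNA, a short duplex directed at SIN3A mRNA (n = 3), a miR-138 mimic, a synthetic copy of that microRNA (n = 3), or the scrambled control NC1 (n = 6). No label gives a dose or a time of harvest. Calu-3 is named as the cell line, although the extraction note mentions primary cultures. All 10 airway epithelial markers examined were measured, with a median level of 7.64 on the log2 scale, and 6 of them lay at 7 or above. Of 8 fibroblast markers 5 lay under 5 and none reached 7, of 8 endothelial markers 7 lay under 5, and of 7 leukocyte markers 4 lay under 5 and 1 was above 7. The mean over the airway epithelial markers was 7.54 to 7.63 on the siRNA arrays and 7.55 to 7.60 on the mimic arrays, against 7.69 to 7.72 on NC1 4 to 6 and 7.65 to 7.68 on NC1 1 to 3.

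The 6 NC1 arrays did not form 1 uniform control. Replicates 4 to 6 and replicates 1 to 3 stood apart across many genes, so both parts of NC1 are given separately throughout. The labels give no reason for the split, which was made with the values of these arrays known, and its calls describe these arrays. All values are log2 levels, and the array medians lay between 5.09 and 5.16. A gene was called where limma's adjusted p (Benjamini-Hochberg over all 18417 genes) was under 0.05. The labels call the arrays biological replicates without saying whether separate cultures were used, and the p-values cover only the spread among the arrays, which may be technical. In bulk RNA, fewer cells that copy their DNA and less histone RNA per cell cannot be told apart.

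SIN3A itself, the targeted gene, was at 6.17, 5.89 and 6.03 on the SIN3A siRNA arrays and at 5.93, 6.06 and 6.25 on the miR-138 mimic arrays, against 7.34, 7.16 and 7.11 on NC1 4 to 6 and 6.79, 6.71 and 6.36 on NC1 1 to 3. Every treated array lay below every NC1 array. With the siRNA the difference was -0.59 (SE 0.12, limma adjusted p = 0.0104) from NC1 1 to 3, a call lost without siRNA 2 and when only the arrays compared were fitted (limma adjusted p = 0.0528), and -1.18 from NC1 4 to 6, and NC1 4 to 6 were themselves 0.58 above NC1 1 to 3. The sequence of the mimic is not in the labels, which do not name the arm of the hairpin. The 5′ arm of miR-138 in RefSeq (GRCh38.p14), encoded on chromosomes 3 and 16, is shown because it is the sequence most often meant by that name, with its seed (bases 2 to 8) in capitals.
hsa-miR-138-5p: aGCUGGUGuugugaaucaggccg

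The upstream regions of 8 members on chromosome 6 are shown first, since the histone classes differ in them. They belong to members with large differences between the parts of NC1, in both directions, chosen with these values known. Each is the 160 bases before the RefSeq start (GRCh38.p14), read along the gene's own strand. Capitals mark the CCAAT box (CCAAT), the TATA motif (TATAA) and the octamer ATTTGCAT, which the factor OCT1 binds in H2B promoters, each searched on both strands without overlap between them in these windows. Of the 5 H2B windows, H2BC10 (chr6:26272771-26272930, plus strand), H2BC9 (chr6:26251454-26251613, plus strand), H2BC14 (chr6:27814862-27815021, plus strand) and H2BC12 (chr6:27146859-27147018, minus strand) hold the octamer, and H2BC5 (chr6:26157961-26158120, plus strand) does not.
H2BC10: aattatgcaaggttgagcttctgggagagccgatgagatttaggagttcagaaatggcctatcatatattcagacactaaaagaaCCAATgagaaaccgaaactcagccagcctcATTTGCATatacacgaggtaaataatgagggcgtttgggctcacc
H2BC9: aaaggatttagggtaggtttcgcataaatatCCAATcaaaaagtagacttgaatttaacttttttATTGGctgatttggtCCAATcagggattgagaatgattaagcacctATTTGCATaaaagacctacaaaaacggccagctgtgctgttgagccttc
H2BC14: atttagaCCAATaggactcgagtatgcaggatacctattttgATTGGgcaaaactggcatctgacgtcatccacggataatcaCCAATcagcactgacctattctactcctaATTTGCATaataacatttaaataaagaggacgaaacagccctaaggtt
H2BC5: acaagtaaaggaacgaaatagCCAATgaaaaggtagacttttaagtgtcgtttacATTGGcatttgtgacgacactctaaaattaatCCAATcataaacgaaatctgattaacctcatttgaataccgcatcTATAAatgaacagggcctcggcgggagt
H2BC12: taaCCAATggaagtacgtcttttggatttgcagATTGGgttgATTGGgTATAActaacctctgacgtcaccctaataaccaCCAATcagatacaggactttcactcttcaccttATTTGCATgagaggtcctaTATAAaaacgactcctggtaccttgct

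The H1 genes carry a box of their own, AAACACA, which is in capitals in the windows of H1-3 (chr6:26234988-26235147, minus strand) and H1-4 (chr6:26156169-26156328, plus strand) beside their CCAAT box and TATA motif. The window of H4C2 (chr6:26027284-26027443, minus strand) holds a TATA motif alone.
H1-3: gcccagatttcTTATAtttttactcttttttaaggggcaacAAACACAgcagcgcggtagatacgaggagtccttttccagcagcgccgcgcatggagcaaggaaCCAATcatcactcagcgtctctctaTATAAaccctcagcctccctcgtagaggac
H1-4: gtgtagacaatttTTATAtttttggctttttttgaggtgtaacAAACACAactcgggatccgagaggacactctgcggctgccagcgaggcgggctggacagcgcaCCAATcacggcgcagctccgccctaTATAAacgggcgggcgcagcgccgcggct
H4C2: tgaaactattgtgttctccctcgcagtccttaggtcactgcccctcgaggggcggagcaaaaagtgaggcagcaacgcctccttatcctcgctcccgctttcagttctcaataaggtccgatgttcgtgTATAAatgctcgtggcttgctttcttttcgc

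RefSeq gave a promoter for 52 of the 57 members, from 250 bases before to 50 after the start. The octamer was in 13 of 16 H2B and 10 of 13 H2A promoters, against 1.77% of the 35116 promoters in the table, and in none of the 6 H1, 7 H3 and 10 H4 promoters. AAACACA was in 6 of 6 H1 promoters and in 1 of 13 H2A promoters, against 5.64% of the table. CCAAT was in every H1, H2A, H2B and H3 promoter but in 3 of 10 H4 promoters, against 34.6% of the table. TATAA was in 5 of 6 H1, 12 of 13 H2A, 15 of 16 H2B, 7 of 7 H3 and 9 of 10 H4 promoters, against 20.4%. These are matches of letters on either strand and anywhere in the promoter, and were not tested as binding sites. The shorter windows shown for H2BC10, H2BC9 and H2BC14 hold no TATAA. A member counted if any of its listed promoters matched, while the share of the table counts each promoter.

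The histone genes differed widely between the parts of the control. On NC1 4 to 6, 29 of the 57 members were higher and 3 lower than on NC1 1 to 3, while 6.86% of all genes were called higher and 3.18% lower in that comparison. The median difference of the members was 0.36, against -0.02 over all genes. On 31 members all 3 arrays of NC1 4 to 6 lay above all 3 of NC1 1 to 3, on 3 they lay below, and on 23 the parts overlapped. Over all genes, 12.0% lay fully above and 10.4% fully below in the same way. Of the 31 members with a mean level of at least 5, 22 were higher and 2 lower. Of all 10993 genes at that level, 1170 were higher and 415 lower, together 14.4%. Of the 26 dimmer members 7 were higher and 1 lower, which was not counted over all dimmer genes. The median of the brighter 31 was 0.69, against 0.02 over all genes at that level. Chromosome 6 held 27 of the higher members among its 49, and chromosome 1 held 2 among its 7.

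**Figure D1:**
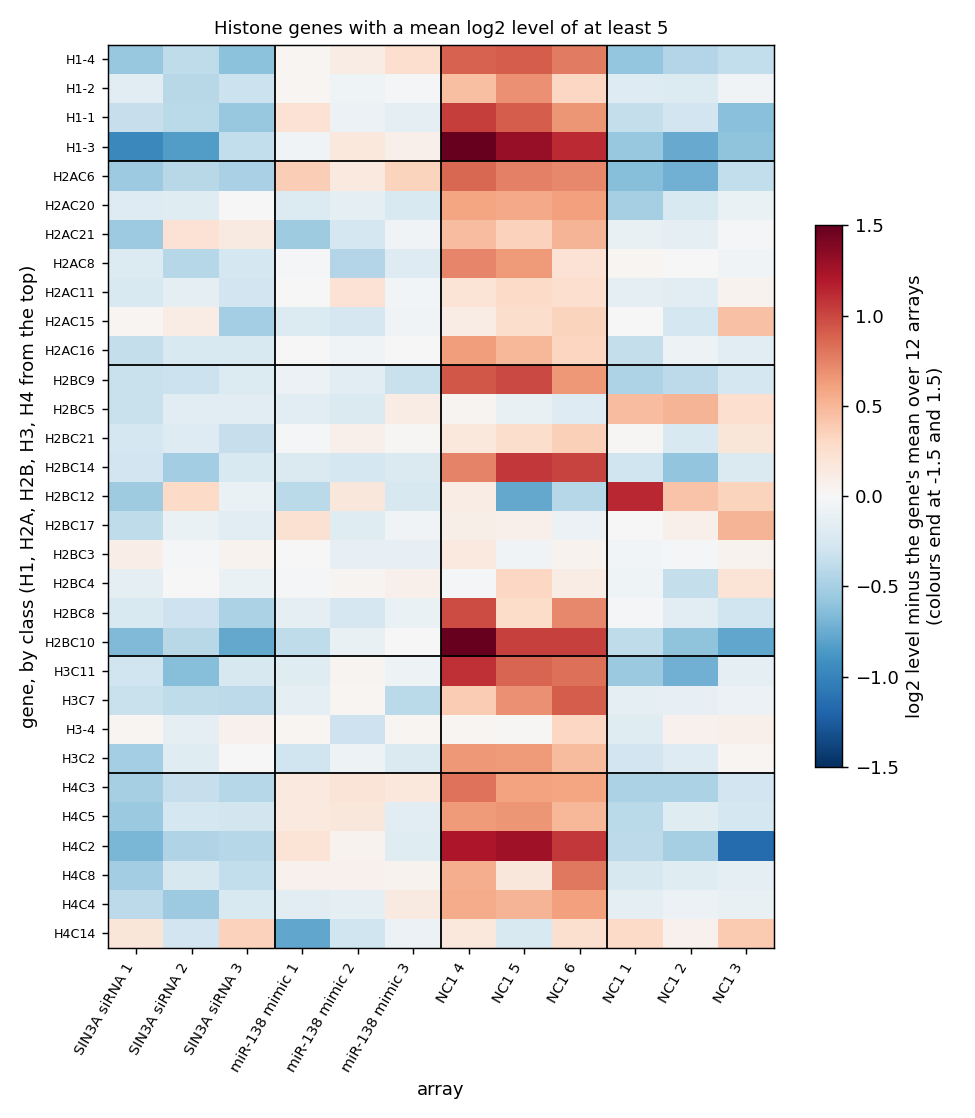
Log2 level of each histone gene with a mean level of at least 5 on each array, minus that gene's own mean over the 12 arrays. Rows are genes by class and columns are arrays, with the SIN3A siRNA at the left. The 3 columns of NC1 4 to 6 are red for most genes of every class, while H2BC5 and H2BC12 are highest on NC1 1 to 3.

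Linker histone H1 showed the largest class difference between the parts of NC1, with a median of 0.96 and 5 of 6 genes called higher. The exception was H1-6, the testis form, at -0.20. H1-3 was at 5.12, 5.25 and 5.72 on the siRNA arrays and 6.04, 6.24 and 6.16 on the mimic arrays, against 7.58, 7.39 and 7.20 on NC1 4 to 6 and 5.52, 5.32 and 5.48 on NC1 1 to 3. The siRNA arrays overlapped NC1 1 to 3, the mimic arrays lay above both of these, and NC1 4 to 6 lay above all others. H1-3 was 3.86-fold higher on NC1 4 to 6 than on NC1 1 to 3 (log2 difference 1.95, SE 0.14, limma adjusted p = 2.03e-07). H1-4 had the same order of groups, at 6.41, 6.60 and 6.37 with the siRNA and 7.01, 7.10 and 7.24 with the mimic, against 7.87, 7.89 and 7.76 on NC1 4 to 6 and 6.40, 6.54 and 6.61 on NC1 1 to 3. H1-1 and H1-2, also somatic linker histones, were 1.29 and 0.63 higher on NC1 4 to 6 than on NC1 1 to 3, and H1-5 was 0.44 higher.

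Among the H2A genes, 8 of 14 were called higher on NC1 4 to 6 than on NC1 1 to 3, with a class median of 0.39. H2AC6 encodes a core histone H2A and was at 8.25, 8.37 and 8.31 with the siRNA and 9.16, 8.94 and 9.12 with the mimic, against 9.65, 9.55 and 9.51 on NC1 4 to 6 and 8.16, 8.07 and 8.42 on NC1 1 to 3. Again the mimic arrays lay between the parts of NC1 and the siRNA arrays among NC1 1 to 3. H2AC20, which lies on chromosome 1, behaved differently with the mimic. It was at 7.47, 7.48 and 7.67 with the siRNA and 7.46, 7.53 and 7.43 with the mimic, against 8.25, 8.23 and 8.28 on NC1 4 to 6 and 7.17, 7.44 and 7.56 on NC1 1 to 3. Both treated groups overlapped NC1 1 to 3 there, and NC1 4 to 6 alone stood higher. H2AC16 was 0.68 higher on NC1 4 to 6 than on NC1 1 to 3, and H2AC21 was 0.53 higher (limma adjusted p = 0.0467), a call that was lost under 9 of 18 alternatives, among them without any single NC1 array, without siRNA 3 and without mimic 2.

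The H2B genes had calls in both directions, with 7 of 16 higher and 2 lower on NC1 4 to 6 than on NC1 1 to 3. H2BC10 was at 4.38, 4.63 and 4.28 with the siRNA and 4.67, 4.94 and 5.06 with the mimic, against 7.08, 6.07 and 6.07 on NC1 4 to 6 and 4.67, 4.44 and 4.27 on NC1 1 to 3. NC1 4 was about 1 log2 unit above the other arrays of its part, and the whole part lay above the remaining 9 arrays. The difference between the parts was 1.95 (SE 0.21, limma adjusted p = 1.67e-05), or 3.85-fold. H2BC9 was at 7.30, 7.30 and 7.42 with the siRNA and 7.54, 7.47 and 7.29 with the mimic, against 8.56, 8.61 and 8.28 on NC1 4 to 6 and 7.17, 7.23 and 7.36 on NC1 1 to 3. H2BC14 was 1.31 higher on NC1 4 to 6 than on NC1 1 to 3. On both genes the treated arrays lay near NC1 1 to 3 and far below NC1 4 to 6.

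H2BC5 and H2BC12 ran the other way. H2BC5 was at 6.83, 6.99 and 7.0 with the siRNA and 7.0, 6.94 and 7.28 with the mimic, against 7.20, 7.05 and 6.97 on NC1 4 to 6 and 7.62, 7.67 and 7.42 on NC1 1 to 3. Only the NC1 1 to 3 arrays stood apart, above all 9 others. The difference of NC1 4 to 6 from NC1 1 to 3 was -0.50 (SE 0.11, limma adjusted p = 0.00719). H2BC12 was at 5.09, 5.91 and 5.53 with the siRNA and 5.22, 5.79 and 5.39 with the mimic, against 5.74, 4.86 and 5.20 on NC1 4 to 6 and 6.75, 6.06 and 5.96 on NC1 1 to 3. It was -0.99 on NC1 4 to 6 relative to NC1 1 to 3, a call lost without NC1 1 or without NC1 5. H2BC5, H2BC12, H2BC21 and H2AC6 are known as replication-dependent genes that can also give polyadenylated mRNA in differentiated cells. On NC1 4 to 6 relative to NC1 1 to 3, H2AC6 was 1.35 higher and H2BC21 was 0.27 higher without passing the test, so the 4 genes did not move together.

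Of the 9 H3 genes, 3 were higher and 1 lower on NC1 4 to 6 than on NC1 1 to 3, and the class median of 0.15 was the smallest of the 5 classes. H3C11 was at 6.3, 5.97 and 6.36 with the siRNA and 6.42, 6.64 and 6.53 with the mimic, against 7.70, 7.48 and 7.43 on NC1 4 to 6 and 6.04, 5.88 and 6.47 on NC1 1 to 3. NC1 4 to 6 lay above all other arrays, by 1.41 over NC1 1 to 3. H3C7 was 0.78 and H3C2 0.74 higher on NC1 4 to 6 than on NC1 1 to 3. H3C10 was 0.39 lower, a call lost under 7 of 17 alternatives, among them without NC1 1, 2, 4, 5 or 6, and H3-4 differed by 0.13 without passing the test.

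Of the 12 H4 genes, 6 were higher on NC1 4 to 6 than on NC1 1 to 3 and none lower, with a median of 0.53. H4C2 was at 6.25, 6.49 and 6.51 with the siRNA and 7.14, 6.99 and 6.76 with the mimic, against 8.16, 8.22 and 8.0 on NC1 4 to 6 and 6.55, 6.44 and 5.79 on NC1 1 to 3. H4C3 was at 9.15, 9.31 and 9.22 with the siRNA and 9.80, 9.84 and 9.81 with the mimic, against 10.46, 10.25 and 10.24 on NC1 4 to 6 and 9.17, 9.17 and 9.36 on NC1 1 to 3. On both genes the siRNA arrays overlapped NC1 1 to 3 and the mimic arrays lay between the parts of the control. NC1 4 to 6 were above NC1 1 to 3 by 1.86 for H4C2, by 1.08 for H4C3 and by 0.88 for H4C5.

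**Figure D2:**
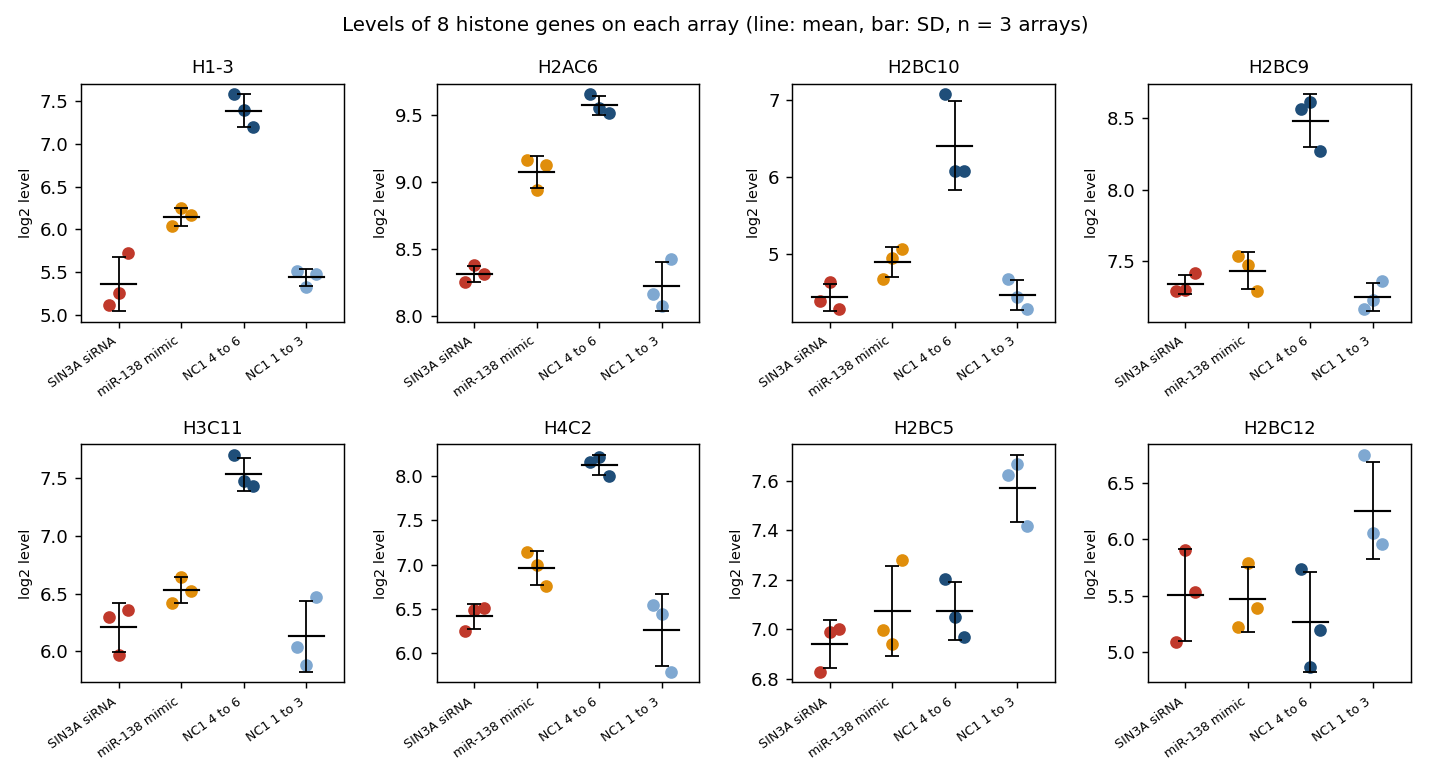
Log2 level of 8 histone genes on each array. Points are arrays, horizontal lines are group means and bars are SD (n = 3). In H1-3, H2AC6, H2BC10, H2BC9, H3C11 and H4C2 the NC1 4 to 6 arrays are the highest, and in H2BC5 and H2BC12 the NC1 1 to 3 arrays are.

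SIN3A siRNA was set against each part of NC1 to ask whether less SIN3A went with other histone mRNA levels. Against NC1 1 to 3 few of them passed the test. Of 57 members 1 was called higher and 1 lower, where 3.66% of all genes were called higher and 2.04% lower, and the median difference was -0.08, against -0.01 over all genes. H2AC14, a core histone H2A, was the higher one, at 3.82, 3.45 and 3.50 with the siRNA and 3.06, 3.35 and 3.18 with the mimic, against 2.75, 3.18 and 2.68 on NC1 4 to 6 and 2.98, 2.94 and 3.18 on NC1 1 to 3. Every siRNA array lay above every other array, at a level where array signal is dim. The difference was 0.55 (SE 0.14, limma adjusted p = 0.0255) from NC1 1 to 3, a call lost under 5 of 18 alternatives (without siRNA 1 or 3, or NC1 1 or 2, among them), and 0.72 from NC1 4 to 6. H2BC5 was the lower one, at -0.63 (SE 0.11, limma adjusted p = 0.00317). H2BC12 was at -0.75 from NC1 1 to 3 and did not pass the test (limma adjusted p = 0.0878).

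Against NC1 4 to 6 the same siRNA arrays gave 31 members lower and 1 higher, where 6.28% of all genes were called lower and 5.16% higher. The median difference was -0.44, against 0.00 over all genes, and it was -0.83 over the 31 members with a mean level of at least 5. By class, 5 of 6 H1, 7 of 14 H2A, 8 of 16 H2B, 4 of 9 H3 and 7 of 12 H4 genes were lower, with class medians of -1.04, -0.43, -0.34, -0.14 and -0.68. The largest were H1-3 at -2.03 (SE 0.14, limma adjusted p = 1.87e-07), H2BC10 at -1.98 and H4C2 at -1.71. H2AC14 was again the 1 member called higher. Both comparisons use the same siRNA arrays, so for H1-3 the value moved to -0.08 when NC1 1 to 3 were the control, for H2BC10 to -0.03 and for H4C2 to 0.16.

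The miR-138 mimic gave a mixed result against NC1 1 to 3, with 5 members higher and 2 lower where 6.01% of all genes were called higher and 2.54% lower, and a median of 0.00, against -0.02 over all genes. The higher members were H2AC6 by 0.85 (SE 0.10, limma adjusted p = 7.83e-05), H1-3 by 0.71, H4C2 by 0.71, H1-4 by 0.60 and H4C3 by 0.58. They belong to the classes H1, H2A and H4. Counts of 5 and 2 among 57 are near the shares over all genes, so no class pattern can be read from them. The lower members were H2BC5 at -0.50 and H4C14 at -0.63. H4C14, an H4 gene on chromosome 1, was at 4.34, 4.82 and 5.03 with the mimic, against 5.40, 5.19 and 5.5 on NC1 1 to 3, and its call (limma adjusted p = 0.0400) was lost under 8 of 19 alternatives, among them without mimic 1 or 2, siRNA 1, or NC1 1, 3 or 4. The probe set that H4C14 shares with H4C15 was also lower with the mimic than on NC1 1 to 3 (-0.56, limma adjusted p = 0.00136). The call of H4C2 was lost without mimic 1 and when only the 6 arrays compared were fitted, and that of H2BC5 without mimic 2.

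Against NC1 4 to 6 the mimic arrays had 29 members lower and none higher, where 1.89% of all genes were called lower and 1.59% higher. The median was -0.43, against 0.00 over all genes. By class, 5 of 6 H1, 7 of 14 H2A, 7 of 16 H2B, 4 of 9 H3 and 6 of 12 H4 genes were lower. The largest were H2BC10 at -1.52 (SE 0.21, limma adjusted p = 3.38e-04), H1-3 at -1.24, H2BC14 at -1.17 and H4C2 at -1.16. H1-3, H1-4, H2AC6, H4C2 and H4C3 were therefore called higher against 1 part of the control and lower against the other. Against NC1 4 to 6 the mimic call of H2AC6 was lost without NC1 4 or mimic 2, that of H1-2 without NC1 5 or mimic 2, that of H2AC16 without NC1 4, that of H4C5 without NC1 5 or mimic 3, and that of H2AC21 without NC1 4 or 6 or mimic 1 or 2. The mimic means lay between the means of both NC1 parts for 33 of the 57 members, below both for 22 and above both for 2. The siRNA means lay between them for 19, below both for 33 and above both for 5. These places were not counted over all genes, so it is not known whether they are particular to the histone genes.

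**Figure D3:**
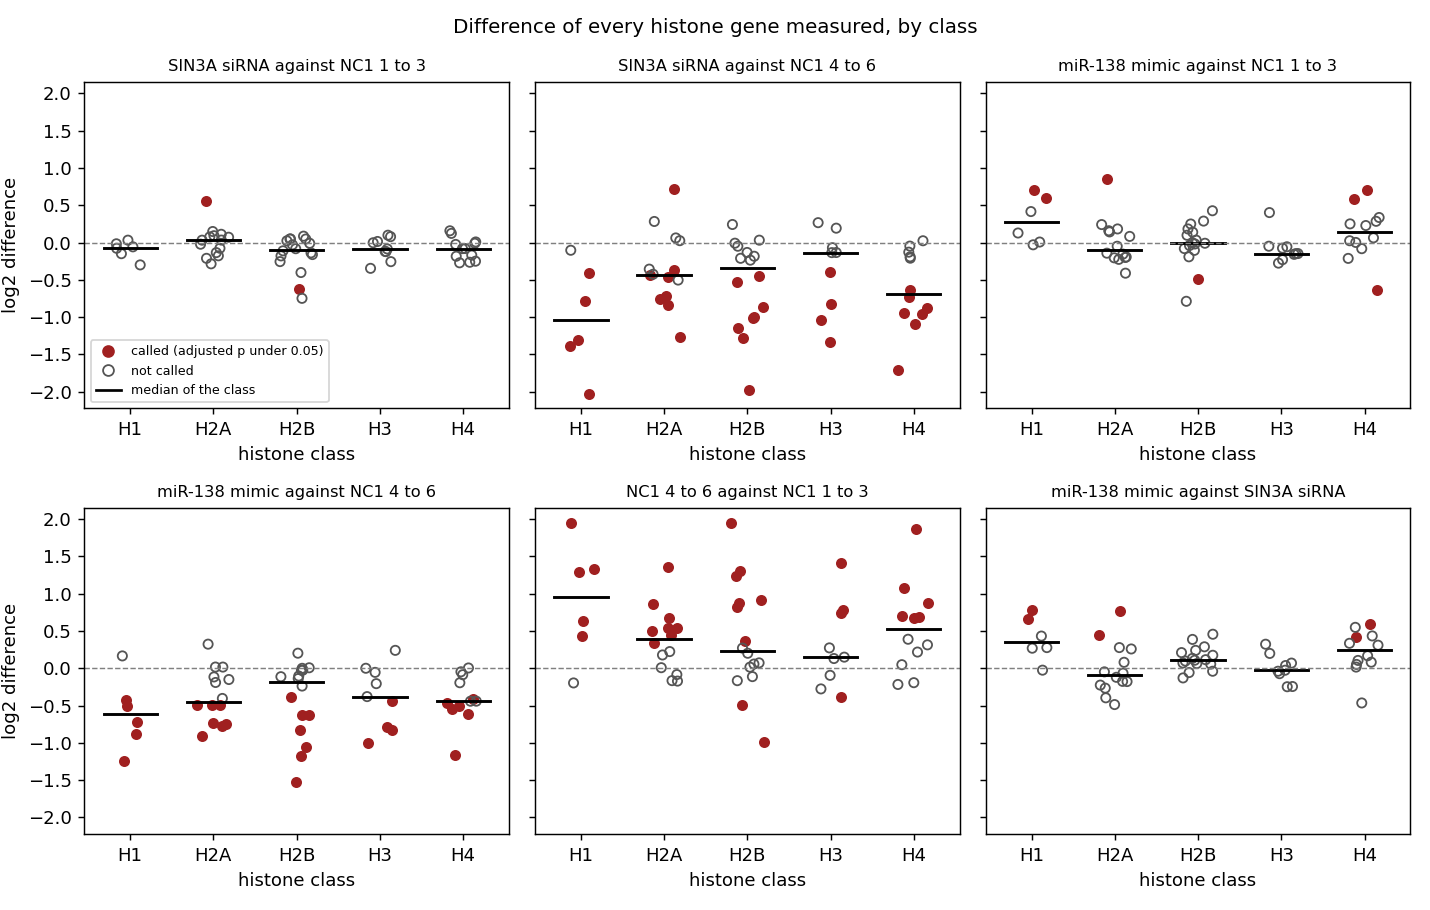
Log2 difference of each of the 57 histone genes by class in 6 comparisons, named first group against second. Filled points passed limma's adjusted p under 0.05, open points did not, and black lines are class medians. Most points are below 0 against NC1 4 to 6 for both treatments, near 0 against NC1 1 to 3, and above 0 for NC1 4 to 6 against NC1 1 to 3.

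Taking all 6 NC1 arrays as 1 control, as the labels give them, left few calls. With the siRNA, H2AC14 was 0.64 higher (SE 0.13, limma adjusted p = 0.0125, a call lost without siRNA 1 or 3) and no member was lower, where 2.35% of all genes were called higher and 1.66% lower, and the median was -0.28, or -0.52 over the 31 members with a mean level of at least 5. Without NC1 2 or without NC1 3 the count was 3, without NC1 1 it was 2, and without siRNA 1 it was 0. With the mimic, limma called 0 of 57 members, where 0.641% of all genes were called higher and 0.402% lower. Of the members, 7 had an unadjusted p under 0.05, which was not counted over all genes. The median was -0.16, or -0.25 over the brighter 31, and without NC1 2 or NC1 3 the count was 1. The SD of the 6 NC1 arrays was 1.08 for H1-3, 1.13 for H2BC10 and 1.06 for H4C2, against 0.19, 0.58 and 0.11 within NC1 4 to 6 and 0.10, 0.20 and 0.41 within NC1 1 to 3.

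Set directly against each other, without a control, the mimic arrays had 6 members higher than the siRNA arrays and none lower, where 3.26% of all genes were called higher and 2.6% lower, and a median difference of 0.10. Over the 31 members with a mean level of at least 5 the median was 0.21. They were H1-3 by 0.79 (SE 0.14, limma adjusted p = 0.00256), H2AC6 by 0.76, H1-4 by 0.66, H4C3 by 0.59, H2AC17 by 0.45 and H4C5 by 0.42. The call of H4C5 was lost under 11 of 20 alternatives, among them without any single siRNA array, mimic 1 or 2, or NC1 4 or 5. Without NC1 3, which bears on the shared variance alone, 11 members were called. If each treatment is first set against 1 part of NC1, the siRNA against NC1 1 to 3 and the mimic against NC1 4 to 6, the difference of the 2 effects turned negative for H1-3 (-1.16), H1-4 (-0.67), H2AC6 (-0.59), H4C3 (-0.49) and H4C5 (-0.46), and 13 members were called lower and 1 higher. The negative values of H4C3 (limma adjusted p = 0.0637) and H4C5 (limma adjusted p = 0.175) did not pass the test. The share of all genes called was not computed for this setting or without NC1 3, so these counts cannot be set against it. The labels do not state which arrays were run together, so the direction of the difference between the treatments could not be fixed.

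Genes active in S phase, when DNA is copied, were counted from a list of 28, of which 27 were measured. On NC1 4 to 6, 15 were higher than on NC1 1 to 3 and none lower, with a median of 0.36, where 6.86% of all genes were called higher. Against NC1 4 to 6, 17 were lower with the siRNA (median -0.56), where 6.28% of all genes were, and 16 with the mimic (median -0.60), where 1.89% were. Against NC1 1 to 3, 4 were lower with the siRNA (median -0.12), where 2.04% of all genes were. With the mimic 2 were lower and 1 higher (median -0.13), where 2.54% of all genes were lower and 6.01% higher. Over the list, the median level of an array was 5.93 to 5.97 with the siRNA and 6.00 to 6.07 with the mimic, against 6.53 to 6.74 on NC1 4 to 6 and 6.09 to 6.24 on NC1 1 to 3. S phase genes thus moved with the histone genes between the parts of the control, and their part in the histone difference was not tested.

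Single S phase genes differed among themselves in the order of the groups. TYMS and PCNA departed from the order of the group means of H1-3 and H1-4, while POLA1 and CDC6 had it. TYMS, which makes thymidylate for DNA, was at 6.34, 6.33 and 6.43 with the siRNA and 7.05, 6.95 and 7.15 with the mimic, against 8.28, 8.19 and 7.97 on NC1 4 to 6 and 7.40, 7.23 and 6.95 on NC1 1 to 3. The siRNA arrays lay below all others, also below NC1 1 to 3 (-0.83, SE 0.12, limma adjusted p = 6.11e-04). POLA1, the catalytic subunit of the polymerase that starts new strands, was likewise lower with the siRNA than on NC1 1 to 3 (-0.53). PCNA, the sliding clamp of the replication fork, was at 5.64, 5.61 and 5.55 with the siRNA and 5.18, 5.05 and 5.15 with the mimic, against 6.84, 6.61 and 6.58 on NC1 4 to 6 and 6.23, 5.88 and 5.71 on NC1 1 to 3. The mimic arrays were the lowest of all, and the difference was called against both parts, at -1.56 from NC1 4 to 6 and -0.82 from NC1 1 to 3. CDC6, which loads the replicative helicase, was 0.42 higher with the mimic than on NC1 1 to 3.

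**Figure D4:**
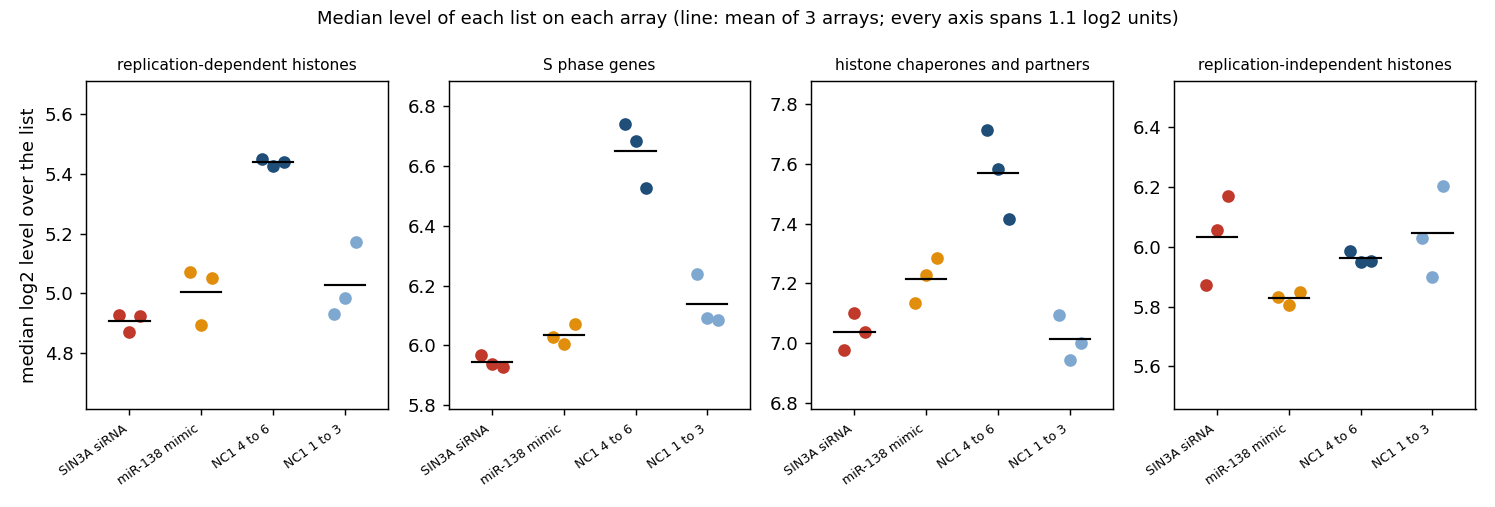
Median log2 level over 4 gene lists on each array. Points are arrays, lines are means of 3 arrays, and each axis spans 1.1 log2 units. NC1 4 to 6 are highest for the replication-dependent histones, the S phase genes and the histone chaperones and partners.

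A list of 20 genes held chaperones that escort histones, together with HAT1, which acetylates new histones, and its partners. It shares MCM2 with the S phase list. Of the 20, 11 were higher on NC1 4 to 6 than on NC1 1 to 3 and none lower, with a median of 0.36, where 6.86% of all genes were called higher. With the siRNA 11 were lower than on NC1 4 to 6, where 6.28% of all genes were, and 1 was lower than on NC1 1 to 3, where 2.04% were. With the mimic 2 were lower than on NC1 4 to 6, where 1.89% of all genes were, and 2 higher than on NC1 1 to 3, where 6.01% were. These last 3 counts are small and little can be read from them. CHAF1B, a subunit of the assembly factor that places H3 and H4 on new DNA, was at 5.46, 5.53 and 5.43 with the siRNA and 5.93, 5.97 and 5.98 with the mimic, against 6.50, 6.55 and 6.23 on NC1 4 to 6 and 5.85, 5.81 and 5.96 on NC1 1 to 3. The siRNA arrays were the lowest and NC1 4 to 6 the highest, and the fall with the siRNA from NC1 1 to 3 was called (-0.40, SE 0.09, limma adjusted p = 0.0206). SSRP1 and SUPT16H, the subunits of the FACT complex, were 0.61 and 0.59 higher on NC1 4 to 6 than on NC1 1 to 3.

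Of 15 histone genes outside the set chosen by symbol, mostly replication-independent variants, 11 were measured. Only 1 was called between the parts of NC1, H2AZ1 at 0.33 higher on NC1 4 to 6 (SE 0.10, limma adjusted p = 0.0432). That is near the 6.86% of all genes called higher, and the median of the list was 0.06. With the siRNA, H2AZ1 was -0.39 from NC1 4 to 6 and the only member called. With the mimic, H2AX, the form phosphorylated at DNA breaks, was -0.32 from NC1 1 to 3 and -0.33 from NC1 4 to 6, and the second value did not pass the test (limma adjusted p = 0.0515). The difference between this list and the replication-dependent genes was not tested.

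Of 22 genes for proteins that process histone mRNA ends or degrade histone mRNA, 2 were higher and 1 lower on NC1 4 to 6 than on NC1 1 to 3, near the 6.86% of all genes called higher and the 3.18% called lower. TUT7, which adds uridines to mRNA ends, was -0.64 there (SE 0.12, limma adjusted p = 0.00259) and was 0.49 higher with the siRNA than on NC1 4 to 6. ERI1, an exonuclease that acts at the histone stem-loop, was 0.61 higher on NC1 4 to 6 and 0.74 higher with the siRNA, each relative to NC1 1 to 3. LSM1, part of the ring that starts decay of histone mRNA, was lower with the mimic than on both parts of NC1, at -0.50 from NC1 4 to 6 and -0.49 from NC1 1 to 3, and was -0.64 from the siRNA. LSM10, a subunit of the U7 particle that cuts histone pre-mRNA, was 0.74 higher with the siRNA than on NC1 4 to 6. Among 15 measured genes listed for histone gene transcription, 2 were higher on NC1 4 to 6 than on NC1 1 to 3, where 6.86% of all genes were. They were the cyclin CCNE2, which is also in the S phase list, by 0.61 and CASP8AP2, which works with NPAT, by 0.41. TRIM33 was the 1 gene of this list called with the siRNA against NC1 1 to 3, where 2.04% of all genes were lower. It was at -0.35 there (SE 0.09, limma adjusted p = 0.0334). CCNE2 was lower than on NC1 4 to 6 with the siRNA (-0.77) and the mimic (-0.74).

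The promoter motifs were set beside the calls between the parts of NC1 as a description. Of all genes, 6.86% were called higher and 3.18% lower there. Of 10 H2A genes whose promoter holds the octamer 7 were higher, and of 3 without it 1 was. Of 13 H2B genes with the octamer 6 were higher and H2BC12 lower, and of 3 without it H2BC13 was higher, H2BC5 lower and H2BC26 at -0.11 not called. With only 3 genes without the octamer in each class, genes with and without it cannot be compared. H2BC10, H2BC9, H2BC14 and H2BC12, whose upstream windows are shown, share the octamer and differ in direction. H2A and H2B genes often lie head to head with a shared upstream region. Pairs could be found only where both genes had a RefSeq promoter, so H2AC12, which had none, was left out. Among the 9 neighbour pairs found, both genes were called higher in 2, H2AC8 with H2BC8 and H2AC13 with H2BC13. In 4 pairs 1 gene was called, among them H2AC6 (1.35) beside H2BC4 (0.20) and H2BC14 (1.31) beside H2AC14 (-0.17), and in 3 pairs neither was.

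Genes of the histone families are near-identical in sequence, so a probe set may take up RNA of other copies, and 11 shared probe sets with separate values were kept apart from the 57. Between the parts of NC1 the probe set shared by H2AC18, H2AC19, H2AC20 and H2AC21 was 0.82 higher on NC1 4 to 6 (limma adjusted p = 3.01e-05). Of the 3 shared by H3C13, H3C14 and H3C15, the differences were 0.31, 0.45 and 0.49. The probe set shared by H3C11 and H3C6 was at -0.30 and did not pass the test (limma adjusted p = 0.0672), while that of H3C11 alone was 1.41 higher. The shared one was dim, with means of 3.07 on NC1 4 to 6 and 3.36 on NC1 1 to 3. The one shared by H4C14 and H4C15 was -0.48 on NC1 4 to 6 relative to NC1 1 to 3 (limma adjusted p = 0.00376). The single-symbol values of H4C14, which are identical to those of H4C15, were at -0.19 and did not pass the test. Relative to NC1 1 to 3 the shared probe set was lower with the siRNA (-0.44, limma adjusted p = 0.0130) and with the mimic (-0.56, limma adjusted p = 0.00136). Relative to NC1 4 to 6 it was at 0.04 with the siRNA and -0.09 with the mimic, and neither passed the test. Neither the shared nor the single-symbol measurement tells these genes apart. Replication-dependent histone mRNAs mostly lack a poly(A) tail, and the labelling kit named in the labels primes from poly(A) tails. Which histone transcripts the arrays measured was not tested.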

How the data were processed

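RNA levels of 12 Calu-3 arrays were taken from the deposited table of log2 values, 1 per probe set and array, which the authors made with RMA and Partek 6.3 per the submitters' processing notes (which step each did is not stated). The values were used as deposited. The table's 33297 probe sets comprised 19460 with a single symbol, 1754 with several and 12083 with none. A gene was read from its single-symbol probe set with the highest mean, which gave 18417 genes, 769 of them with several such probe sets. Arrays give no counts, so their number limits the precision. A member's log2 difference had a median standard error of 0.12 in the fit of 4 group means.

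All 12 arrays were fitted in limma 3.58.1 under R 4.3.3 (lmFit and eBayes) with 4 group means (SIN3A siRNA, miR-138 mimic, NC1 4 to 6, NC1 1 to 3; 8 residual degrees of freedom), and with 3 group means (9 residual degrees of freedom) for the comparisons with all NC1. P-values were adjusted over all genes and called under 0.05. The script was tested on simulated data. Members, gene lists, motifs and the split of NC1 were chosen with earlier results of these data known, and comparisons that share arrays are not independent.

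Members named with values were, by rule, the 3 of each class with the highest mean level and the 3 with the largest difference between the NC1 parts, up to 4 called members per comparison and direction, SIN3A, and up to 4 genes of each list. Other members are named only where a count or a pair needs them. Replicate numbers were not taken to pair samples, since same-numbered arrays of different groups correlated at -0.10 to 0.03 in their deviations from the group means. Alternatives tried were a second quantile normalization, a minimum mean level of 5, another variance model (trend and robust), the mean of a gene's probe sets, shared probe sets added, only the arrays compared, each array left out, a replicate block and the array set as a block. The array set placed each treatment with the part of NC1 listed just before it among the samples, a grouping that no label gives. Motifs and sequences are from RefSeq (GRCh38.p14). No genome was used here.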

Additional observations from a re-analysis of the deposited data

How the results depend on the processing

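Of 296 recomputed counts and medians of the histone genes, 273 stayed within 1.5 times the reported count or within the spread between arrays. The share of all genes called was not computed for any alternative. With only genes at a mean level of at least 5, the medians were -0.83 for the siRNA and -0.55 for the mimic against NC1 4 to 6, 0.21 for the mimic against the siRNA, 0.69 for NC1 4 to 6 against NC1 1 to 3 and -0.52 for the siRNA against all NC1, and the siRNA had 1 call against NC1 1 to 3. With shared probe sets added, that count was 4, and the medians against NC1 4 to 6 were -0.40 for the siRNA and -0.33 for the mimic. With only the arrays compared, the siRNA had 1 call against NC1 1 to 3, and the mimic against the siRNA had 12. After a second quantile normalization the siRNA had 2 calls against all NC1. With the array set as a block, the mimic against the siRNA had a median of -0.30 and 14 calls, and its values reversed for H1-3 (-1.16), H1-4 (-0.67), H2AC6 (-0.59), H4C3 (-0.49) and H4C5 (-0.46). That block by construction subtracts NC1 1 to 3 from the siRNA and NC1 4 to 6 from the mimic; for the other settings the cause was not tested. Of 77 called results of single genes, 55 kept their call under every alternative and 22 lost it under at least 1.

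With 1 array left out in turn, the counts were 1 to 2 for the siRNA and 5 to 8 for the mimic against NC1 1 to 3, 29 to 33 for the siRNA and 21 to 29 for the mimic against NC1 4 to 6, 4 to 11 for the mimic against the siRNA (11 without NC1 3), 25 to 33 between the NC1 parts, and 0 to 3 for the siRNA and 0 to 1 for the mimic against all NC1 (1 without NC1 2 or NC1 3). The lone siRNA call against NC1 1 to 3 was without siRNA 1. The medians in the same order were -0.09 to -0.05, -0.03 to 0.04, -0.46 to -0.42, -0.44 to -0.40, 0.07 to 0.12, 0.35 to 0.40, -0.34 to -0.26 and -0.22 to -0.12. With the replicate block over the 9 arrays numbered 1 to 3, the counts were 2 for the siRNA and 8 for the mimic against NC1 1 to 3 and 8 for the mimic against the siRNA, and the medians stayed at -0.08, 0.00 and 0.10. No paired analysis was possible because the labels give NC1 4 to 6 no numbers shared with the treated arrays, for the comparisons with these arrays.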
